A study of Saccharomyces cerevisiae with 8 samples.

Results

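The genes described here are 10 nitrogen genes of budding yeast, *Saccharomyces cerevisiae*, out of 6120 genes counted by RNA-seq. They comprise the ammonium transporter genes *MEP1*, *MEP2* and *MEP3*, the GATA factor genes *GAT1*, *DAL80* and *GZF3*, and the permease genes *GAP1*, *DAL4*, *DAL5* and *DUR3*. They were chosen by name, with their mRNA levels in these same libraries already known, so levels and differences between strains are given for them as a description and without a test. All 10 passed the filter on low counts, which kept 5909 genes.

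The libraries come from 4 strains with 2 libraries each, all grown to mid-log phase at 30°C in SC medium, a synthetic medium that supplies both ammonium and amino acids. W303a is the unmodified parent, of mating type a, and carries *ura3-52*, *trp1Δ2* and *leu2-3_112* together with *his3-11*, *ade2-1* and *can1-100*. The *ubc9-6* strain, derived from W303a, has repeated copies of the *ubc9-1* allele at the *UBC9* locus with a *TRP1* marker between them. Ubc9 is the SUMO conjugating enzyme, and SUMO conjugation is impaired in this strain. Tfg1-HA carries a 6xHA tag on Tfg1, the large subunit of the general transcription factor TFIIF, with the *TRP1* marker of *Kluyveromyces lactis*. Tfg1-K60,61R-HA is the same except that Lys 60 and Lys 61 of Tfg1 are Arg, and it also has an inadvertent Asn-to-Gln substitution elsewhere in Tfg1. All 3 derived strains therefore carry a *TRP1* marker that W303a lacks, and each comparison with W303a covers that difference too.

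Yeast uses rich nitrogen sources first. While they last, genes for the uptake and breakdown of poorer sources are held at low levels, a control known as nitrogen catabolite repression (NCR). The activators Gln3 and Gat1 and the repressors Dal80 and Gzf3 are zinc finger proteins of the GATA family, and they compete for short upstream sequences with the core GATAAG. The Mep proteins bring ammonium into the cell. Mep2 has the highest affinity among them and is also needed for the switch to filamentous growth on scarce ammonium.

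Libraries held between 26674458 and 34614232 counts. The SD of the log2 difference between replicates lay between 0.139 and 0.175 in W303a, *ubc9-6* and Tfg1-HA and was 0.292 in Tfg1-K60,61R-HA, whose libraries stood farthest apart. *UBC9* was at 183.5 and 189.5 counts per 1000000 counts of the scaled library (CPM) in *ubc9-6* and between 74.1 and 83.2 CPM in the other 6 libraries. *TRP1* was at 351.4 and 366.1 CPM in *ubc9-6* and between 13.9 and 19.0 CPM elsewhere, while *TFG1* lay between 160.4 and 200.6 CPM and the SUMO gene *SMT3* between 174.6 and 211.7 CPM over all 8 libraries. The *TRP1* counted here is the *S. cerevisiae* gene, so expression of the *K. lactis* marker in the Tfg1 strains could not be checked. Summed levels of 5 genes specific to mating type a lay between 1076 and 1523 CPM, against 31.1 to 45.7 CPM for 4 genes specific to mating type alpha. A list of 10 stress genes under Msn2 and Msn4 summed to 1199 and 1159 CPM in W303a, to 2114 and 2376 CPM in *ubc9-6*, to 2929 and 2935 CPM in Tfg1-HA, and to 3410 and 2816 CPM in Tfg1-K60,61R-HA. Their sum was thus lowest in the 2 W303a libraries, although 1 of the 10, *SPI1*, was at 36.6 and 30.9 CPM in W303a and at 20.2 and 23.0 CPM in Tfg1-HA. The part of the stress genes in the results that follow was not tested.

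To see what the 10 genes share in sequence, the motif GATAAG was sought on both strands in the window from 600 to 51 bases upstream of each start codon. All 10 genes had at least 1 match, compared with 24.5% of the 6097 windows of counted genes, and 8 of the 10 had at least 3 matches, compared with 0.64% of windows. *MEP2* had 7 matches, *GAP1* and *MEP3* 5 each, *GAT1* and *DAL4* 4 each, *DAL80*, *GZF3* and *DAL5* 3 each, *MEP1* 2 and *DUR3* 1. Matches that share bases were counted separately. A match is a stretch of letters and does not show that a factor binds there. The 150-base stretches below, from the R64 reference sequence (sacCer3), are those with the most matches upstream of 5 genes. *MEP2*, *DAL80* and *GAP1* are shown because their levels differed most between *ubc9-6* and W303a. *GAT1* is shown because its 4 matches lie close together, 3 of them overlapping. *DUR3* is shown because it has only 1 match and because its level was highest in *ubc9-6*. They read 5′ to 3′ on the strand of the gene, and capitals mark GATAAG or, where the motif lies on the other strand, CTTATC.
MEP2: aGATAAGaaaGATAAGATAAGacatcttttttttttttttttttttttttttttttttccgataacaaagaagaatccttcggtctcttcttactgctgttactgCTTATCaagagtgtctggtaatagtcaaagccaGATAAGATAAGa
DAL80: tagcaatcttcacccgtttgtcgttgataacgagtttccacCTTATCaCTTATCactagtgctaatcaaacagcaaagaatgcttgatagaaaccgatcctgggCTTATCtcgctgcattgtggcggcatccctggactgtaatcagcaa
GAP1: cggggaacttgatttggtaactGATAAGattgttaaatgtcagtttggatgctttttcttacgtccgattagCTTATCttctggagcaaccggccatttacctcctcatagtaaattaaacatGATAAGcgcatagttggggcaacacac
GAT1: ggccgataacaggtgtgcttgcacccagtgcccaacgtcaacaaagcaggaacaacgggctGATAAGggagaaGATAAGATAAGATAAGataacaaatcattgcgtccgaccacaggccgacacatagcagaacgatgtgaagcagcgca
DUR3: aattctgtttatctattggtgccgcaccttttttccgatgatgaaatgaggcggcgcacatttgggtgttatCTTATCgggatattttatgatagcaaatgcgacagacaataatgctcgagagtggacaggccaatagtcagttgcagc

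The *MEP2* stretch lies at chrXIV:356987-357136 on the plus strand, 466 to 317 bases before the start codon, and holds 6 of its 7 matches. The *DAL80* stretch lies at chrXI:506567-506716 and the *GAP1* stretch at chrXI:514698-514847, both on the plus strand. The *GAT1* stretch lies at chrVI:95664-95813 on the plus strand and the *DUR3* stretch at chrVIII:74502-74651 on the minus strand. In *GAT1* all 4 matches start between 241 and 219 bases before the start codon and point the same way as the gene. In *DAL80* and *GZF3*, the repressor genes, all 3 matches of each are on the other strand.

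**Figure D1:**
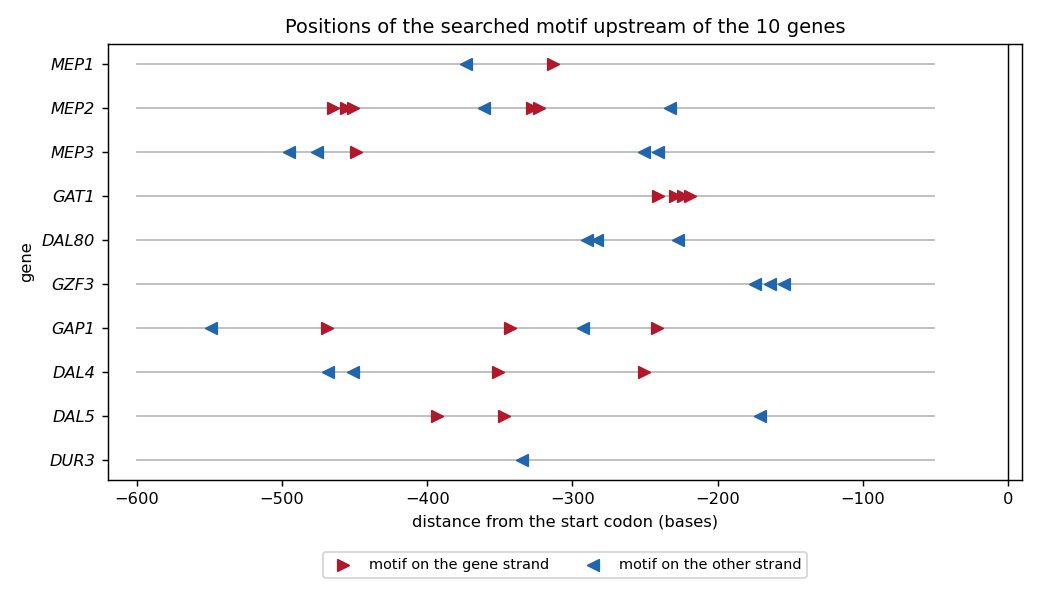
Positions of the motif (triangles, red on the strand of the gene and blue on the other strand) along the searched window of each gene (grey lines), with the distance from the start codon in bases on the x axis and the gene on the y axis. *MEP2* has 7 matches in separate groups, *GAT1* has 4 close together, and *DUR3* has 1.

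Among the ammonium transporter genes, *MEP2* differed most between strains. Its level was 500.6 and 475.4 CPM in W303a, 213.6 and 213.2 CPM in *ubc9-6*, 270.8 and 277.6 CPM in Tfg1-HA, and 264.5 and 352.2 CPM in Tfg1-K60,61R-HA. Both W303a libraries thus stood above the other 6 and both *ubc9-6* libraries below the other 6, while the libraries of the Tfg1 strains overlapped. In these bulk samples a smaller share of cells with the mRNA and less mRNA per cell cannot be told apart. The *ubc9-6* level was 2.29-fold below that of W303a. This is a log2 fold change of −1.19 ± 0.111 (n = 2 libraries against 2, SE from the fit of all 8 libraries). The corresponding log2 fold changes from W303a were −0.83 ± 0.110 in Tfg1-HA and −0.66 ± 0.110 in Tfg1-K60,61R-HA. Between the Tfg1 strains it was 0.17 ± 0.110, and −0.05 without the second Tfg1-K60,61R-HA library, which alone set the sign.

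*MEP1* and *MEP3* code for the ammonium transporters of lower affinity and varied far less. *MEP1* was at 110.4 and 102.8 CPM in W303a, 96.5 and 105.5 CPM in *ubc9-6*, 86.2 and 80.6 CPM in Tfg1-HA, and 86.8 and 88.9 CPM in Tfg1-K60,61R-HA. W303a and *ubc9-6* overlapped, and both lay above the Tfg1 strains, which did not overlap each other. *MEP3* was at 160.2 and 163.1 CPM in W303a, 145.6 and 150.6 CPM in *ubc9-6*, 135.7 and 144.0 CPM in Tfg1-HA, and 148.8 and 141.4 CPM in Tfg1-K60,61R-HA. W303a was above the other 6 libraries, and the remaining strains overlapped with their neighbours. On the log2 scale *MEP1* differed from W303a by −0.08 ± 0.0601 in *ubc9-6* and by −0.35 ± 0.0604 in Tfg1-HA. For *MEP3* these differences were −0.13 ± 0.0497 and −0.21 ± 0.0498. The *MEP1* and *MEP3* coding sequences are 73.2% identical over 1301 bases by BLAST, and the longest identical run in their alignment is 20 bases. Per length of coding sequence, *MEP2* was the most abundant of these mRNAs in every library, at 142.1 to 333.8 RPKM (CPM per kilobase of counted length), followed by *MEP3* at 92.3 to 110.9 RPKM and *MEP1* at 54.5 to 74.7 RPKM, with no overlap between the genes.

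**Figure D2:**
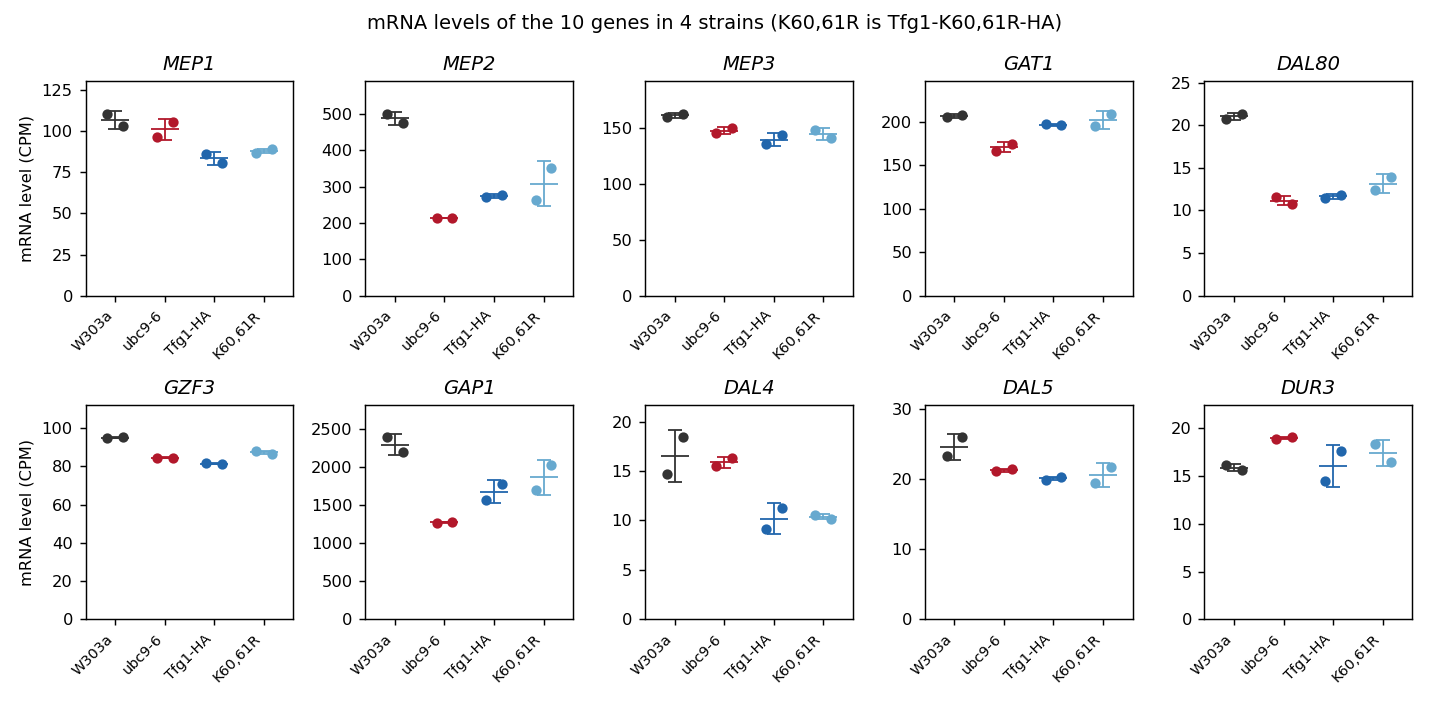
Level of each gene (y axis, CPM, from 0) in the 4 strains (x axis), with points for the 2 libraries of a strain, a horizontal line for their mean and bars for the SD. *MEP2*, *DAL80* and *GAP1* are highest in both W303a libraries, and *DUR3* is highest in both *ubc9-6* libraries.

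Among the GATA factor genes, *DAL80*, which codes for a repressor of NCR genes and is itself an NCR gene, had by far the widest range. It was at 20.7 and 21.3 CPM in W303a, 11.5 and 10.8 CPM in *ubc9-6*, 11.5 and 11.9 CPM in Tfg1-HA, and 12.4 and 13.9 CPM in Tfg1-K60,61R-HA. The means of the derived strains were 53.0%, 55.4% and 62.5% of the W303a mean, with *ubc9-6* and Tfg1-HA overlapping and Tfg1-K60,61R-HA above both. The log2 fold changes from W303a were −0.92 ± 0.0885 in *ubc9-6*, −0.85 ± 0.0881 in Tfg1-HA and −0.68 ± 0.0883 in Tfg1-K60,61R-HA. With 364 to 723 counts per library, *DAL80* is one of the less deeply counted genes of the 10.

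*GAT1*, the gene of the activator, set *ubc9-6* apart from the other strains. It was at 205.2 and 208.4 CPM in W303a, 167.0 and 175.1 CPM in *ubc9-6*, 197.2 and 195.9 CPM in Tfg1-HA, and 195.0 and 209.3 CPM in Tfg1-K60,61R-HA. Both *ubc9-6* libraries were below the other 6, and Tfg1-K60,61R-HA overlapped with W303a and with Tfg1-HA. The log2 fold change was −0.27 ± 0.0505 in *ubc9-6* and −0.07 ± 0.0504 in Tfg1-HA. In Tfg1-K60,61R-HA it was −0.03 ± 0.0505, with the opposite sign (0.018) without the first Tfg1-K60,61R-HA library.

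*GZF3* codes for a second GATA repressor. It was at 94.9 and 95.0 CPM in W303a, 84.5 and 84.2 CPM in *ubc9-6*, 81.7 and 81.2 CPM in Tfg1-HA, and 87.9 and 86.5 CPM in Tfg1-K60,61R-HA. No strains overlapped, yet the whole span of strain means was only 0.22 on the log2 scale. The log2 fold changes from W303a were −0.17 ± 0.0374 in *ubc9-6*, −0.22 ± 0.0374 in Tfg1-HA and −0.12 ± 0.0375 in Tfg1-K60,61R-HA. Per length, *GAT1* at 108.9 to 136.5 RPKM exceeded *GZF3* at 49.0 to 57.4 RPKM, and *DAL80* was lowest at 13.3 to 26.4 RPKM, without overlap. *DAL80* and *GZF3* are 74.0% identical over 150 bases.

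*GAP1* codes for the general amino acid permease and is the most abundant mRNA of the 10, with a mean of 984 RPKM, a level that 96.1% of counted genes did not exceed. It was at 2393 and 2206 CPM in W303a, 1270 and 1281 CPM in *ubc9-6*, 1572 and 1783 CPM in Tfg1-HA, and 1707 and 2031 CPM in Tfg1-K60,61R-HA. As with *MEP2*, both W303a libraries were highest, both *ubc9-6* libraries were lowest, and the Tfg1 strains lay between them and overlapped. The *ubc9-6* level was 1.80-fold below W303a, a log2 fold change of −0.85 ± 0.0883. In Tfg1-HA the log2 fold change was −0.45 ± 0.0878. In Tfg1-K60,61R-HA it was −0.30 ± 0.0877, and −0.18 without the first Tfg1-K60,61R-HA library. *GAP1* and *DAL80* lie 7355 bases apart on chromosome XI. The 4 genes between them had log2 fold changes from −0.16 to −0.0098 in *ubc9-6*, and 0 of the 4 were called there. Of these 4, *SPC34* was called higher in Tfg1-HA (0.26) and in Tfg1-K60,61R-HA (0.27) against W303a.

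The permeases for allantoin, allantoate and urea were scarce, with means between 6.94 and 13.3 RPKM. *DAL4*, the allantoin permease gene, was at 14.7 and 18.4 CPM in W303a, 15.5 and 16.3 CPM in *ubc9-6*, 9.10 and 11.3 CPM in Tfg1-HA, and 10.6 and 10.2 CPM in Tfg1-K60,61R-HA. Its pattern differed from that of *MEP2*: *ubc9-6* lay within the range of W303a, and the 4 libraries of the Tfg1 strains lay below both. The log2 fold change from W303a was −0.06 ± 0.132 in *ubc9-6*, and 0.11 without the second W303a library. It was −0.70 ± 0.135 in Tfg1-HA and −0.68 ± 0.136 in Tfg1-K60,61R-HA. *DAL4* held 266 to 623 counts per library, and it is 70.5% identical to the uracil permease gene *FUR4* over 1672 bases.

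*DAL5*, the allantoate permease gene, was at 23.3 and 25.9 CPM in W303a, 21.1 and 21.4 CPM in *ubc9-6*, 19.9 and 20.3 CPM in Tfg1-HA, and 19.4 and 21.8 CPM in Tfg1-K60,61R-HA. W303a was highest, and the other strains were close together, with Tfg1-K60,61R-HA overlapping both. The log2 fold changes from W303a lay between −0.29 and −0.21, with SEs of 0.0827 to 0.0834. *DUR3*, the urea transporter gene, ran the other way. It was at 16.1 and 15.6 CPM in W303a, 18.9 and 19.0 CPM in *ubc9-6*, 14.5 and 17.7 CPM in Tfg1-HA, and 18.4 and 16.5 CPM in Tfg1-K60,61R-HA. Both *ubc9-6* libraries were above the other 6, and W303a lay within the range of Tfg1-HA. The log2 fold change was 0.26 ± 0.105 in *ubc9-6*, the only positive value among the 10 in that comparison, and 0.02 ± 0.106 in Tfg1-HA, where it was negative without the second library of either strain.

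**Figure D3:**
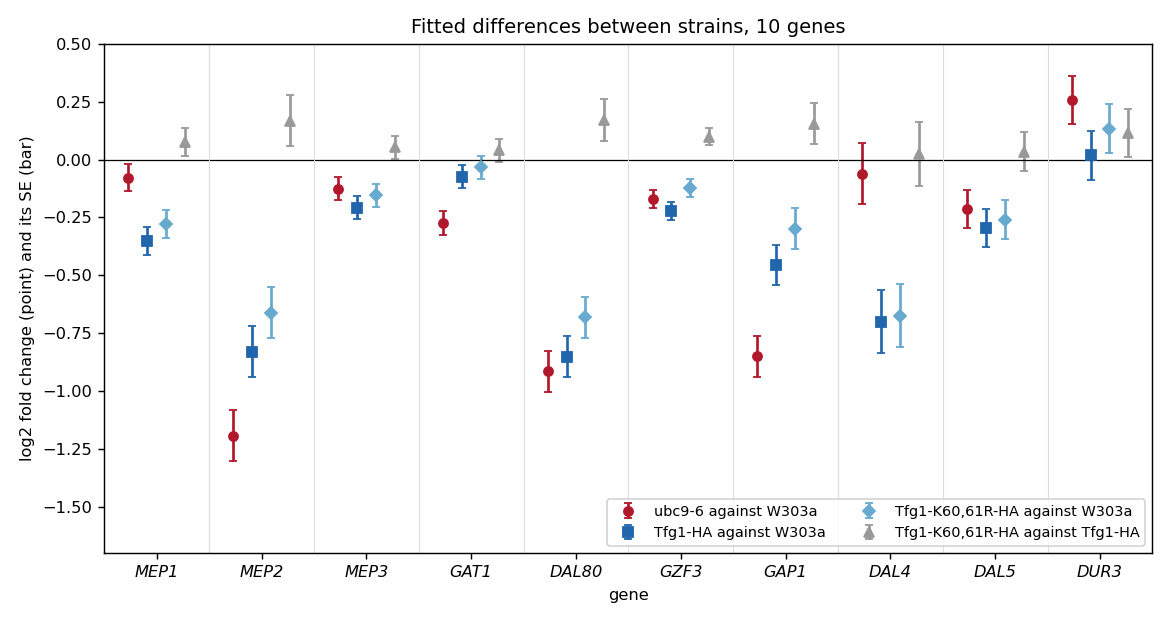
Log2 fold change (y axis; points) and its SE (bars) of each gene (x axis) against W303a in *ubc9-6* and in both Tfg1 strains, and between the Tfg1 strains. *MEP2*, *DAL80* and *GAP1* are at or below −0.85 in *ubc9-6*, *DAL4* is near 0 in *ubc9-6* but at −0.70 in Tfg1-HA, and the grey triangles between the Tfg1 strains all lie between 0.02 and 0.17.

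Over the 10 genes, the comparisons with W303a can be set against all genes. A gene was called where the Benjamini-Hochberg adjusted p of edgeR's quasi-likelihood test was under 0.05. For *ubc9-6* against W303a, 5 of the 10 were called lower (*MEP2*, *GAT1*, *DAL80*, *GZF3* and *GAP1*) and 0 higher, where 9.36% of all genes were called lower and 11.4% higher. The median log2 fold change was −0.19 for the 10 genes and −0.0038 for all genes. For Tfg1-HA, 8 of the 10 were called lower, all but *GAT1* and *DUR3*, where 21.5% of all genes were. For Tfg1-K60,61R-HA against W303a, the count was again 8, where 24.5% of all genes were called lower. The median log2 fold changes of the 10 genes were −0.32 and −0.27 in these comparisons, with −0.0022 and 0.00092 for all genes. Because the genes were chosen with these values known, a call is no test of any of the 10. Nothing is read from their calls or counts. The 3 comparisons also share the W303a libraries, so a deviation of those 2 libraries would appear in each of them. Both W303a libraries were above the other 6 for 6 of the 10 genes (*MEP2*, *MEP3*, *DAL80*, *GZF3*, *GAP1* and *DAL5*), where 19% of all genes had this order. The *TRP1* marker follows the same division of the strains, so its part cannot be told apart from that of the mutations and tags. Fewer of the 10 were called in *ubc9-6* without the first *ubc9-6* library or without either W303a library. When only the 4 libraries compared were fitted, 8 were called (7 lower and 1 higher). Calls over all genes rose from 1229 to 2090 in that fit, so nothing is read from the change in count. For Tfg1-K60,61R-HA against W303a, the count of 8 fell to 5 with only its own 4 libraries fitted and without either W303a library.

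Whether loss of the Tfg1 sumoylation site alters these mRNAs is asked by Tfg1-K60,61R-HA against Tfg1-HA, strains that share the tag and the marker. They also differ by the inadvertent Asn-to-Gln substitution, whose part cannot be told apart from that of the site. Here 0 of the 10 genes were called, and 0% of all genes were. Over all genes, 572 passed 0.05 before adjustment in the quasi-likelihood test, DESeq2 called 36, and the likelihood ratio test of edgeR called 3. The 10 log2 fold changes lay between 0.02 (*DAL4*) and 0.17 (*DAL80*), with a median of 0.087 compared with −0.0026 for all genes. For *MEP1*, *DAL80* and *GZF3* both Tfg1-K60,61R-HA libraries were above both Tfg1-HA libraries, an order found for 18.4% of all genes. The sign of *MEP2*, *GAT1* and *DAL5* turned without the second Tfg1-K60,61R-HA library, that of *DAL4* without the first Tfg1-K60,61R-HA or the first Tfg1-HA library, and that of *DUR3* without the first Tfg1-HA library. When the *ubc9-6* effect was set against this Tfg1-K60,61R effect, the log2 difference was −1.36 ± 0.156 for *MEP2*, −1.09 ± 0.126 for *DAL80* and −1.01 ± 0.124 for *GAP1*. It lay between −0.31 and −0.27 for *GAT1* and *GZF3* and between −0.25 and 0.14 for the other 5. In this comparison 5 of the 10 were called lower, where 2.86% of all genes were. Because the genes were chosen with these values known, nothing is read from these calls or their count. The *ubc9-6* effect is also measured from W303a, which lacks the *TRP1* marker that both Tfg1 strains carry.

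The wider set of nitrogen genes did not move in 1 direction. Another 38 genes of nitrogen use and its control were taken from a list of 6 groups, and all 38 were tested. This list was also chosen with earlier results of these data known, which limits what its p-values can show. Genes given with p-values in the next paragraphs are called ones, at most the 4 highest and 4 lowest of each comparison. In *ubc9-6* against W303a, 9 rose and 4 fell, where 11.4% of all genes rose and 9.36% fell. In Tfg1-HA 11 rose and 9 fell, where 21.5% of all genes rose and 21.5% fell. In Tfg1-K60,61R-HA 11 rose and 8 fell, where 24.9% rose and 24.5% fell, so the shares in both Tfg1 strains lay near those of all genes. Their median log2 fold changes were 0.078, 0.018 and 0.061. Between the Tfg1 strains 0 of 38 were called, and DESeq2 called 0. Before adjustment 3 of the 38 passed 0.05 in edgeR, where 572 of 5909 genes did. The count of 13 called in *ubc9-6* was 21 when only the 4 libraries compared were fitted. It also moved when single libraries were left out. In Tfg1-HA, the count of 20 fell without either W303a library and without the second Tfg1-HA library. Calls over all genes also moved between refits, from 1229 to 2090 in the 4-library fit of *ubc9-6*, so nothing is read from these changes.

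Of the 6 genes of allantoin and urea breakdown, 3 fell in *ubc9-6* and 4 in each Tfg1 strain, and 0 rose. The shares of all genes that fell in these comparisons were 9.36%, 21.5% and 24.5%. *DAL3*, which codes for ureidoglycolate lyase, was at 27.6 and 26.4 CPM in W303a and at 19.3 and 21.9 CPM in *ubc9-6*, a log2 fold change of −0.39 ± 0.0816 (edgeR adjusted p = 0.0143). It missed the threshold without the first *ubc9-6* library or without either W303a library. *DAL7*, a malate synthase gene, fell by 0.28 ± 0.0651 on the log2 scale in *ubc9-6* (edgeR adjusted p = 0.0204) and by 0.38 ± 0.0652 in Tfg1-HA (edgeR adjusted p = 0.00228), the former missing the threshold without any 1 of the libraries compared. *DUR1,2*, the urea amidolyase gene, fell by 0.30 ± 0.0872 in *ubc9-6* (edgeR adjusted p = 0.0422), a call lost without any 1 library of W303a, *ubc9-6* or Tfg1-HA. *DCG1* was at 13.0 and 14.2 CPM in W303a, 12.3 and 10.3 CPM in *ubc9-6*, 4.88 and 6.79 CPM in Tfg1-HA, and 4.93 and 6.08 CPM in Tfg1-K60,61R-HA. Like *DAL4* it set the Tfg1 strains apart, with log2 fold changes of −1.22 ± 0.175 and −1.31 ± 0.179 from W303a (edgeR adjusted p = 0.000917 and 0.000566). *DAL2*, the allantoicase gene, fell in Tfg1-K60,61R-HA by 0.49 ± 0.123 (edgeR adjusted p = 0.0104), though not without the second W303a library.

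Of the 8 genes for the use of proline, arginine and GABA, 4 rose and 0 fell in *ubc9-6*, and 5 rose and 1 fell in each Tfg1 strain. The shares of all genes that rose in these comparisons were 11.4%, 21.5% and 24.9%. *PUT4*, the proline permease gene, was at 151.7 and 136.4 CPM in W303a, 205.7 and 219.4 CPM in *ubc9-6*, 318.2 and 337.4 CPM in Tfg1-HA, and 257.6 and 321.4 CPM in Tfg1-K60,61R-HA. Its W303a libraries were thus the lowest, and its log2 fold changes were 0.56 ± 0.101, 1.19 ± 0.102 and 1.01 ± 0.101 (edgeR adjusted p = 0.00811, 0.000103 and 0.000148). The first was lost without the second *ubc9-6* or the second W303a library. *PUT1*, which codes for proline oxidase, rose by 0.79 ± 0.0660 in *ubc9-6* (edgeR adjusted p = 0.000223). *CAR2*, the ornithine transaminase gene of arginine breakdown, rose by 1.41 ± 0.170 in Tfg1-HA and by 1.77 ± 0.171 in Tfg1-K60,61R-HA (edgeR adjusted p = 0.000431 and 0.000131). *UGA4*, the GABA permease gene, was the member of this group that fell, by 0.83 ± 0.135 in Tfg1-HA and by 0.70 ± 0.136 in Tfg1-K60,61R-HA (edgeR adjusted p = 0.00173 and 0.00321).

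In the other groups, calls were few or mixed. The shares of all genes that rose were 11.4% in *ubc9-6*, 21.5% in Tfg1-HA and 24.9% in Tfg1-K60,61R-HA. Those that fell were 9.36%, 21.5% and 24.5%. Of 5 genes of ammonium assimilation, 2 rose in *ubc9-6*, 1 rose and 2 fell in Tfg1-HA, and 1 rose and 1 fell in Tfg1-K60,61R-HA. *GLT1*, the glutamate synthase gene, fell by 0.54 ± 0.0632 in Tfg1-HA and by 0.56 ± 0.0634 in Tfg1-K60,61R-HA (edgeR adjusted p = 0.00038 and 0.000246), and *GDH3*, a glutamate dehydrogenase gene, rose by 0.85 ± 0.0966 in the latter (edgeR adjusted p = 0.000252). Of 12 regulator genes, among them *GLN3* and *URE2*, 0 were called in *ubc9-6*. In Tfg1-HA 2 rose and 1 fell, and in Tfg1-K60,61R-HA 2 rose and 2 fell. In *ubc9-6*, 3 of the 12 had an unadjusted p under 0.05 in the edgeR test, where 2172 of 5909 genes did. Of 3 genes of ammonium export, *ADY2* rose in all 3 strains, by 0.88 ± 0.200, 0.78 ± 0.200 and 1.00 ± 0.200 (edgeR adjusted p = 0.0194, 0.0141 and 0.00393), from 51 and 60 counts in the W303a libraries. Of 4 genes for vacuolar peptidases and oligopeptide transport, the aminopeptidase gene *APE1* rose by 0.62 ± 0.0899 in *ubc9-6* and by 0.85 ± 0.0896 in Tfg1-HA (edgeR adjusted p = 0.00304 and 0.000231). *OPT2*, an oligopeptide transporter gene, fell by 0.50 ± 0.0731 in *ubc9-6* (edgeR adjusted p = 0.00333). The *ADY2* calls in *ubc9-6* and Tfg1-HA were lost without either W303a library or without the second library of the strain compared.

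**Figure D4:**
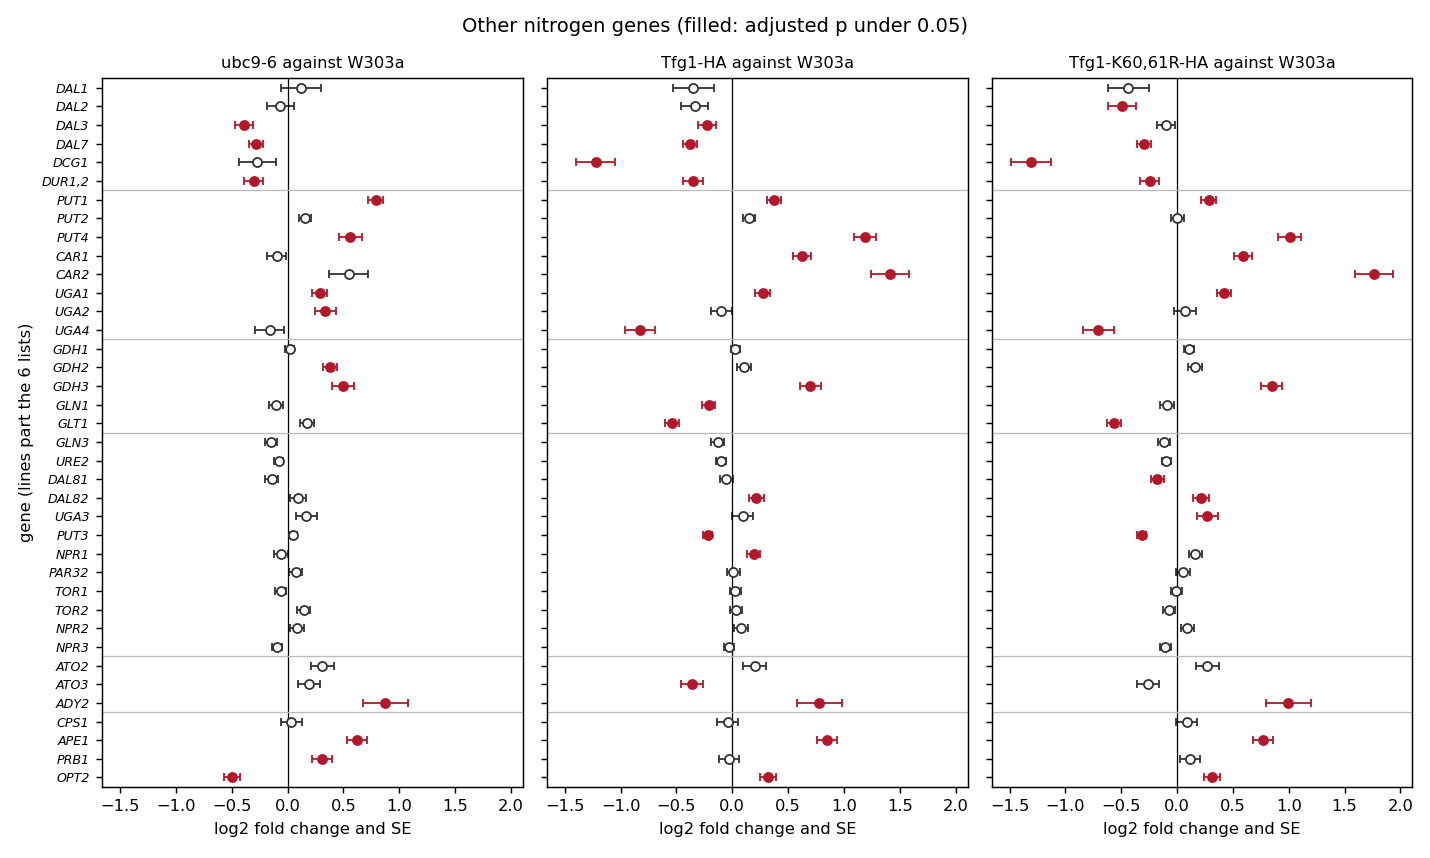
Log2 fold change (x axis; points) and its SE (bars) of 38 other nitrogen genes (y axis, grouped by list) in each strain against W303a, with filled red points for genes called at an adjusted p under 0.05. The 6 genes of allantoin and urea breakdown at the top lie mostly left of 0, and most of the 8 genes of proline, arginine and GABA use below them lie right of 0.

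The motif was also less frequent in this wider set. Of these 38 genes, 68.4% had at least 1 match and 21.1% had at least 3, which lies between the 10 genes and all windows. To find the mRNAs most like *MEP2* in pattern, log2 CPM was correlated over the 8 libraries with each of 5688 genes outside the 10 that had a mean of at least 50 counts. The closest were *EGT2* (Pearson r = 0.989), *GPI17* (0.982), *ENO2* (0.982), *VRG4* (0.977) and *IES3* (0.974). These values describe only how levels vary together over the same 8 libraries, which come from 4 strains and share their scaling. *EGT2* was at 803 CPM in W303a, 497 CPM in *ubc9-6*, 608 CPM in Tfg1-HA and 637 CPM in Tfg1-K60,61R-HA (means of 2 libraries). Its span of levels was the widest of these 5, and all 5 spans were narrower than that of *MEP2*.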

How the data were processed

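Polyadenylated RNA of 4 strains, 2 libraries each, was sequenced with a directional kit. Per the submitters' notes the authors aligned reads with HISAT2 2.1.0 to sacCer3 and counted fragments on exons with featureCounts of Subread 2.0.0, without strand, multimapping or overlapping reads, and deposited raw counts for 6120 genes. They also deposited comparison tables (log2 fold changes, p-values and FDR), which were not used. Whether the replicates are separate cultures is not given in the sources used here, so p-values measure the spread between these libraries, which may be technical.

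Counts were fitted over all 8 libraries with edgeR 4.0.16 (R 4.3.3): TMM scaling, filterByExpr, strain means, the quasi-likelihood test and Benjamini-Hochberg adjustment over 5909 genes, tested on simulated data. Each SE is the absolute log2 fold change divided by the square root of the F statistic of that test. All 8 libraries share the estimate of the spread, so an SE is not the spread of the 2 strains compared alone. CPM use TMM-scaled library totals, RPKM divide them by the counted length, and log2 CPM for correlations has a prior count of 2. An exact permutation test of 2 against 2 libraries cannot go below a two-sided p of 0.333. Alternatives were the likelihood ratio test, DESeq2 1.42.0, RLE scaling, other filters, a replicate block, 4-library fits and leaving out each library.

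Members and lists were chosen with earlier results of these data known. Named besides all 10 members were, for each comparison, up to 4 called genes highest and 4 lowest of the 38 other nitrogen genes, *UBC9*, *TFG1*, *SMT3* and *TRP1* as strain checks, and the 5 genes most like *MEP2*, the member with the widest span.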

Additional observations from a re-analysis of the deposited data

Results flagged for a closer look

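For 5 of the 38 other nitrogen genes, the *ubc9-6* effect differed from the Tfg1-K60,61R effect in the interaction term of the edgeR fit. Of these, 3 were called higher and 2 lower. Over all 5909 genes, 190 were called higher and 169 lower in the same term. The *ubc9-6* effect is measured from W303a and so also covers the *TRP1* marker, which both Tfg1 strains carry. The part of the marker was not tested. The difference of log2 fold changes was 0.88 ± 0.0931 for *PUT1* (edgeR adjusted p = 0.00169), from 0.79 in *ubc9-6* against W303a and −0.089 in Tfg1-K60,61R-HA against Tfg1-HA. For *PUT4* it was 0.74 ± 0.142 (edgeR adjusted p = 0.024), from 0.56 and −0.18. *APE1* had a difference of 0.70 ± 0.125 (edgeR adjusted p = 0.0185), from 0.62 and −0.079. That of *DAL3* was −0.52 ± 0.115 (edgeR adjusted p = 0.0391), from −0.39 and 0.13. That of *OPT2* was −0.49 ± 0.102 (edgeR adjusted p = 0.0317), from −0.50 and −0.0015. In Tfg1-HA against W303a, *PUT1* (0.37), *PUT4* (1.19), *APE1* (0.85) and *DAL3* (−0.23) moved the same way as in *ubc9-6*. *OPT2* did not, with a Tfg1-HA mean at 125% of that of W303a.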

How the results depend on the processing

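Leaving out single libraries moved the counts of calls most. Over all genes, the count in *ubc9-6* was 1229, 2090 with only the 4 libraries compared, and 262 (without the second *ubc9-6* library) to 1921 (without the first Tfg1-K60,61R-HA library) with 1 library left out. Between the Tfg1 strains it was 0, 3 with the likelihood ratio test, 36 with DESeq2, and 0 to 446 (without the second Tfg1-K60,61R-HA library) with 1 left out. In Tfg1-HA against W303a it was 2542, and 1560 (without the second W303a library) to 3031. For the difference of effects it was 359, and 94 (without the first W303a library) to 672 (without the second Tfg1-K60,61R-HA library), and a fit of 4 libraries could not give it. Of the 38 other nitrogen genes, 13 were called in *ubc9-6*, 21 with only the 4 libraries compared, and 4 to 22 with 1 left out. Between the Tfg1 strains the count was 0, and 0 to 5 (without the second Tfg1-K60,61R-HA library), and in Tfg1-HA it was 20, and 12 to 22. No log2 fold change called for these genes turned its sign in the 384 refits of those named, of which 22 missed the threshold. For the 10 genes, 758 of 790 refitted log2 fold changes moved by less than the spread between replicates. With a replicate block, 1107 genes were called in *ubc9-6*, 0 between the Tfg1 strains, 2480 in Tfg1-HA, 2847 in Tfg1-K60,61R-HA against W303a and 253 for the difference of effects. The deviations of same-numbered libraries correlated at −0.188 to 0.118, so the numbers are not shown to pair them. The lowest value was between W303a and *ubc9-6*, and with the *ubc9-6* numbers exchanged, a choice made after seeing the data, the block gave 1282, 2615, 2943 and 323. Genes with few counts, such as *DAL4*, *DUR3* and *ADY2*, are limited by depth.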
